A study of Mus musculus with 12 samples.

Results

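Collagen genes were followed across 4 groups of one-colour mouse arrays. They were taken by name, as every gene on the array whose symbol is Col, a number, a and a number, whatever its signal. This gave 40 genes, measured by 81 array features, of 27597 gene names in all. The classes were 11 fibrillar genes, 6 of type IV, 3 of type VI, 9 fibril-associated genes (FACIT), 3 short-chain network genes, 4 transmembrane genes, 2 multiplexins, Col7a1 and Col28a1. The study, whose title concerns genes that regulate the mitochondrial pool of DNA precursors, hybridized 3 arrays of each group. Soleus, a slow oxidative muscle, and extensor digitorum longus (EDL), a fast glycolytic one, came from male CD1 mice aged 3 months, and a sample pooled the muscles of both hind limbs of a mouse. C2C12 myotubes were fused cells of a mouse muscle cell line after 96 hours in medium with horse serum, detached with trypsin and replated briefly so that mononucleated cells stuck and most of what was collected was myotubes. C2C12 myoblasts were the dividing precursors of the same line, collected at about 50% confluence. The cultures therefore hold 1 cell line, whereas whole muscle also holds connective tissue, vessels and nerve.

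Collagens are proteins of 3 chains wound into a triple helix, and a molecule may combine chains from several genes. Fibrillar collagens assemble into the cable-like fibres of connective tissue, type IV forms the sheet of basement membranes, and type VI forms beaded filaments beside them. FACIT members coat fibrils, multiplexins sit in basement membrane zones, and transmembrane collagens are anchored in the cell surface. Around skeletal muscle, type IV and type VI lie in the sheath of each fibre, and types I and III make up most of the tougher layers outside it.

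Levels are log2 of the scanner's processed signal after scaling each array by its 75th percentile, so 1 unit is a doubling, and a level serves to compare arrays for 1 gene but not 1 gene with another. The 75th percentile of the processed signal before scaling was 457 to 614 on soleus arrays, 466 to 595 on EDL arrays, 1018 to 1230 on myotube arrays and 1048 to 1556 on myoblast arrays. Over the 12 arrays, 57.4% to 72.8% of probes passed the scanner's background flag. Markers went with the labels in sign, though not all by the calls defined below. The 4 slow fibre genes were all higher in soleus than in EDL (3.32 to 5.76). Of 4 fast fibre genes, 2 were called lower there (-4.77 to -0.16 over the 4). The 4 genes of differentiated muscle were all higher in myotubes than in myoblasts (2.48 to 7.30). Of 4 genes of dividing myoblasts, 3 were called lower in myotubes (-6.68 to -0.30 over the 4). A gene is called here at an adjusted p under 0.05 with a log2 difference of at least 1, by limma over all 18861 genes that passed the filter on dim probes. Of the 40 collagen genes, 37 passed. Well above background on all 3 arrays of a group were 34 in soleus, 37 in EDL, 33 in myotubes and 29 in myoblasts, and 27 were so on all 12 arrays. Untested were Col9a3, a cartilage FACIT chain seen on 1 soleus, 1 EDL and 2 myotube arrays, Col10a1, the collagen of maturing cartilage, seen on 2 myotube arrays, and Col28a1, seen on none.

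Compared with myotubes, both muscles had more RNA of most collagen genes. In EDL, 22 of 37 were higher and 4 lower, against 27.9% of all genes called higher and 19.9% lower. In soleus the counts were also 22 and 4, against 25.8% and 19.5% of all genes. Shares of all genes, here and below, are those of the 75th percentile scaling and not of the alternatives. The median collagen difference was 2.31 for EDL minus myotube and 1.88 for soleus minus myotube (2.25 and 1.85 with genes dim in myotubes at their bound), beside 0.21 and 0.14 for all genes. These differences are relative to the 75th percentile: scaling on the spike-in RNAs instead moved the median gene by -0.94 and -1.17, and then 20 collagen genes were higher and 8 lower in EDL, and 14 higher and 7 lower in soleus. Both comparisons share the myotube arrays with that of myotubes against myoblasts, so the values are given side by side and their overlap is not counted.

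**Figure D1:**
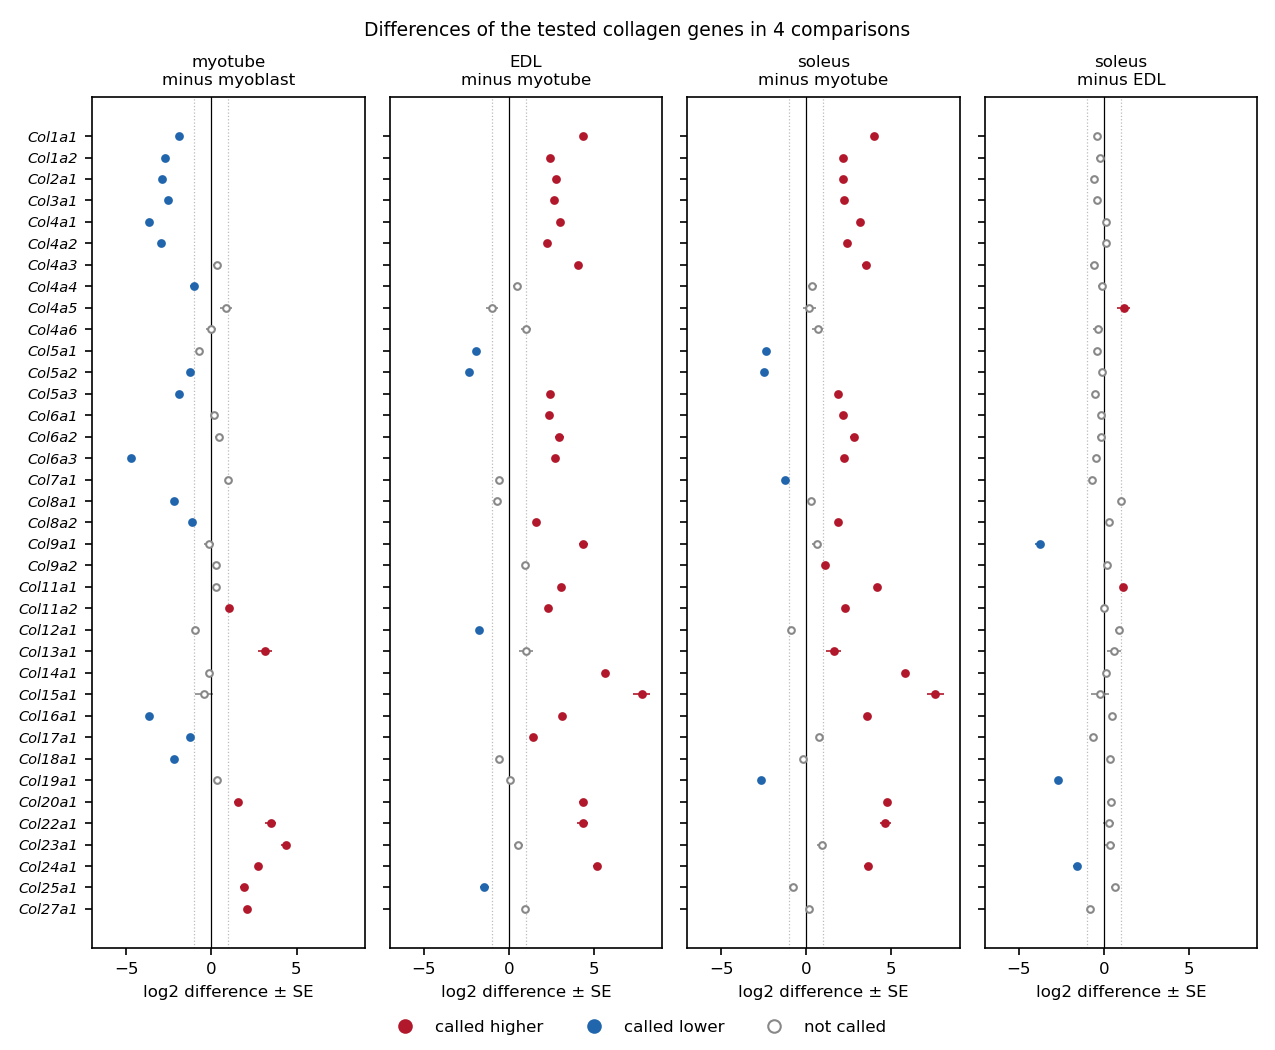
Log2 difference with its standard error (horizontal axis) of the 37 tested collagen genes (rows) in 4 comparisons (panels); red dots were called higher, blue lower, and open grey dots were not called. Most dots of the panels of EDL and soleus minus myotube lie right of 0, those of soleus minus EDL lie near 0, and values against groups not well above background are fitted values, given as bounds in the text.

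Myotubes compared with myoblasts went both ways. Of 37 genes, 8 were higher and 15 lower, against 18.9% of all genes called higher and 16.5% lower, with a median of -0.15 beside 0.04 for all genes. By class, 6 of 11 fibrillar genes were lower and 3 higher, while 3 of 6 of type IV and 1 of 3 of type VI were lower and none higher. Of 8 tested FACIT genes 2 were higher and 1 lower, and of 4 transmembrane genes 3 were higher and 1 lower. The 2 tested network genes and 1 of 2 multiplexins were lower. With normexp background correction in place of the scanner's own, 12 of the 15 lower genes kept their call and none of the 8 higher ones did, since 6 changed sign and 2 were no longer called. Normexp also moved the median of all genes by -0.56 in this comparison. The 1 gene higher under normexp was Col7a1 (1.16), which is not among the 8. With spike-in scaling 6 were higher and 16 lower. Markers moved too: the summed scaled signal of 4 genes of dividing myoblasts was 4022 to 4643 in myotubes and 36157 to 41006 in myoblasts, and their part in the collagen values was not tested.

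Few collagen genes were called between the muscles. In soleus, 2 of 37 genes were higher and 3 lower than in EDL, which is near the share over all genes, 5.03% higher and 4.75% lower, and the median was -0.11 beside -0.04. Col4a5 and Col11a1 were higher in soleus, and Col9a1, Col19a1 and Col24a1 were lower. None of these 5 calls held with normexp, and with spike-in scaling none was higher and 3 were lower.

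Most fibrillar genes were higher in muscle than in myotubes. In both EDL and soleus, 8 of 11 rose and 2 fell, beside the 27.9% and 19.9% of all genes in EDL and the 25.8% and 19.5% in soleus. With spike-in scaling all 8 rises held in EDL and 4 in soleus, where Col1a2, Col2a1 (0.97), Col3a1 (1.04) and Col5a3 were no longer called. Col1a1 and Col1a2 encode the chains of type I collagen, the main protein of tendon and of muscle connective tissue. Col1a1 (probe at chr11:94767851-94767910, build mm8) measured 15.11, 15.18 and 15.15 in soleus, 15.55, 15.64 and 15.52 in EDL, 11.06, 11.34 and 11.20 in myotubes, and 13.01, 13.28 and 13.11 in myoblasts. No 2 groups overlapped, and all myotube arrays were the lowest. The gene was 15.5-fold higher in soleus than in myotubes (3.95 ± 0.10, SE, adjusted p = 1.68e-10) and 20.8-fold higher in EDL than in myotubes (4.38 ± 0.10, adjusted p = 7.55e-11), and in myotubes it fell by 1.94 relative to myoblasts (SE 0.10, adjusted p = 3.96e-08).

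Col1a2 measured 15.47, 15.76 and 15.74 in soleus, 15.54, 16.00 and 16.19 in EDL, 13.29, 13.54 and 13.61 in myotubes, and 15.96, 16.42 and 16.27 in myoblasts. Again the myotube arrays stood alone at the bottom, but here the EDL and myoblast arrays overlapped. It was lower in myotubes than in myoblasts (-2.74 ± 0.18, adjusted p = 3.77e-07), and higher than in myotubes in EDL (2.43 ± 0.18, adjusted p = 6.59e-07) and soleus (2.18 ± 0.18, adjusted p = 1.66e-06). Against myoblasts the pair differed: Col1a1 was higher in EDL (2.44 ± 0.10) and soleus (2.01 ± 0.10), while Col1a2 was not called in either (-0.31 and -0.56). With spike-in scaling, Col1a1 in soleus minus myoblast was 0.48 and not called, and Col1a2 in soleus minus myotube was 1.01 and no longer called (adjusted p = 0.0822).

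Col3a1, the chain of type III collagen that joins type I in pliable tissue, averaged 14.44 ± 0.07 in soleus, 14.86 ± 0.14 in EDL, 12.22 ± 0.22 in myotubes and 14.79 ± 0.25 in myoblasts (SD, n = 3 each). In myotubes it was 5.93-fold lower than in myoblasts, and in EDL it was 6.21-fold higher than in myotubes. Col2a1, the main collagen of cartilage, gave a like set of values on a probe printed 10 times on the array: 11.90 ± 0.08 in soleus, 12.50 ± 0.23 in EDL, 9.76 ± 0.20 in myotubes and 12.65 ± 0.16 in myoblasts. A second kept Col2a1 probe, at 8.29 in soleus, 8.32 in EDL, 7.21 in myotubes and 7.45 in myoblasts, gave smaller differences of the same sign against myotubes. Against myoblasts the 2 probes disagreed, with -0.15 and 0.87 for EDL and -0.75 and 0.84 for soleus. Of 5 other cartilage genes, every array of a group detected 1 in soleus, 1 in EDL, 4 in myotubes and 4 in myoblasts.

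Promoter letters are shown for Col1a2 and Col3a1, whose signals had the same order of myotubes against the other groups. They are the 250 bases before the start of the gene in RefSeq, build GRCm38.p6, at chr6:4505368-4505617 and chr1:45311288-45311537, both on the plus strand. Capitals mark the motif CCAAT, the GC box with its letters GGGCGG and the box spelled TATAAA. Each was searched on both strands. So was CAGCTG, an E-box of the kind bound by muscle regulators, which neither stretch held. No 2 marked motifs overlap.
Col1a2: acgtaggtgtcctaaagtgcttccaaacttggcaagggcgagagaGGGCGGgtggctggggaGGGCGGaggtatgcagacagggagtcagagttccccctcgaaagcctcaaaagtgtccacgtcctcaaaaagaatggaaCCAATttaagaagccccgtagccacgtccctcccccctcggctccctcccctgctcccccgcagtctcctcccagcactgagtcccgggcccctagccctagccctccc
Col3a1: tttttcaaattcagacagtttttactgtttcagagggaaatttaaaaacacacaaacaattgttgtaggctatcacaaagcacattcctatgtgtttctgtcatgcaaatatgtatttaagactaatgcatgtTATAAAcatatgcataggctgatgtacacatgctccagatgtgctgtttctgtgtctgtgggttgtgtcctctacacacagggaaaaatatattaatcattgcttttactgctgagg
Col1a2 held GGGCGG at 205 and 188 bases and CCAAT at 109 bases before the start, and Col3a1 held TATAAA at 117 bases. CCAAT was in 33.8% of all 32851 RefSeq windows of this length, GGGCGG in 32.7%, TATAAA in 12.4% and CAGCTG in 13.0%. Of the collagen genes 32 matched this table, with 35 windows, and CCAAT was in 12 of these, GGGCGG in 19, TATAAA in 5 and CAGCTG in 5. These are matches of letters, not measured binding.

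Type V collagen, which starts and narrows type I fibrils, split by chain. Col5a2 measured 9.27, 9.22 and 9.25 in soleus, 9.46, 9.24 and 9.38 in EDL, 11.86, 11.57 and 11.76 in myotubes, and 13.07, 12.85 and 13.05 in myoblasts. Both muscles lay below both cultures without overlap, the reverse of Col1a1. Its difference was -2.37 ± 0.10 for EDL minus myotube (adjusted p = 7.02e-09), -2.48 ± 0.10 for soleus minus myotube (adjusted p = 5.32e-09) and -1.26 ± 0.10 for myotube minus myoblast (adjusted p = 1.36e-06). Col5a1 was also below culture, at 10.65, 10.87 and 10.83 in soleus, 11.06, 11.26 and 11.25 in EDL, 13.09, 13.13 and 13.16 in myotubes, and 13.81, 13.79 and 13.98 in myoblasts. It was 5.09-fold lower in soleus and 3.84-fold lower in EDL than in myotubes, while its -0.73 in myotubes minus myoblasts was under the minimum difference. A second Col5a1 probe, well above background on all 12 arrays, had the same sign against myotubes. Its differences were under the minimum, at -0.76 in soleus and -0.42 in EDL.

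Col5a3, the chain found in fewer tissues, had another order. It measured 11.21, 11.44 and 11.34 in soleus, 11.69, 12.03 and 11.89 in EDL, 9.31, 9.52 and 9.62 in myotubes, and 11.14, 11.43 and 11.62 in myoblasts. Soleus and myoblast arrays overlapped, and the myotube arrays were the lowest. It was higher in EDL (2.39 ± 0.14) and soleus (1.85 ± 0.14) than in myotubes, and in myotubes it fell by 1.92 relative to myoblasts. With spike-in scaling the soleus difference was 0.67 and not called.

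Type XI chains, best known from cartilage fibrils, were higher in muscle. Col11a1 measured 9.89, 9.96 and 10.08 in soleus, 8.76, 8.95 and 8.89 in EDL, 5.66, 5.99 and 5.78 in myotubes, and 5.48, 5.52 and 5.56 in myoblasts. All soleus arrays were above all EDL arrays, and both muscles far above both cultures. The difference was 4.17 ± 0.10 for soleus minus myotube (adjusted p = 1.35e-10), 3.05 ± 0.10 for EDL minus myotube (adjusted p = 1e-09) and 1.11 ± 0.10 for soleus minus EDL (adjusted p = 1.73e-05). Col11a2 averaged 9.54 ± 0.05 in soleus, 9.56 ± 0.14 in EDL, 7.25 ± 0.09 in myotubes and 6.25 ± 0.11 in myoblasts (SD, n = 3 each). Its difference of 1.01 in myotubes minus myoblasts sat at the minimum: it was 0.65 with spike-in scaling, -0.34 with normexp, 0.95 without myoblast replicate 1, 0.98 without myotube replicate 2 or 3, and 0.51 over both probes.

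Col24a1, a fibrillar gene known from bone, measured 8.41, 7.68 and 8.18 in soleus, 9.85, 9.74 and 9.42 in EDL, 4.82, 4.21 and 4.45 in myotubes, and 1.46, 1.78 and 1.97 in myoblasts, where this probe was not well above background. The 4 groups did not overlap. The gene was 36.1-fold higher in EDL than in myotubes (5.18 ± 0.23, adjusted p = 9.8e-09), 12.1-fold higher in soleus than in myotubes (3.60 ± 0.23, adjusted p = 1.75e-07) and 2.99-fold lower in soleus than in EDL (-1.58 ± 0.23, adjusted p = 0.000464). A second probe was well above background on all 3 myoblast arrays and had the other sign there, with means of 3.55 in myotubes and 3.97 in myoblasts. This probe averaged 5.53 in soleus and 6.15 in EDL, and 2 of 3 arrays were well above background in each muscle and in myotubes. Its differences between soleus, EDL and myotubes had the same signs but were smaller. Col27a1, a fibrillar gene of cartilage, was higher in myotubes than in myoblasts (2.09 ± 0.19) and was not called in either muscle against myotubes (0.94 in EDL, which was 1.04 and called without EDL replicate 2). With normexp, both Col24a1 and Col27a1 reversed in myotubes minus myoblasts, to -1.03 and -0.94, and Col24a1 in soleus was not called against myotubes (2.29) or EDL (-0.82).

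**Figure D2:**
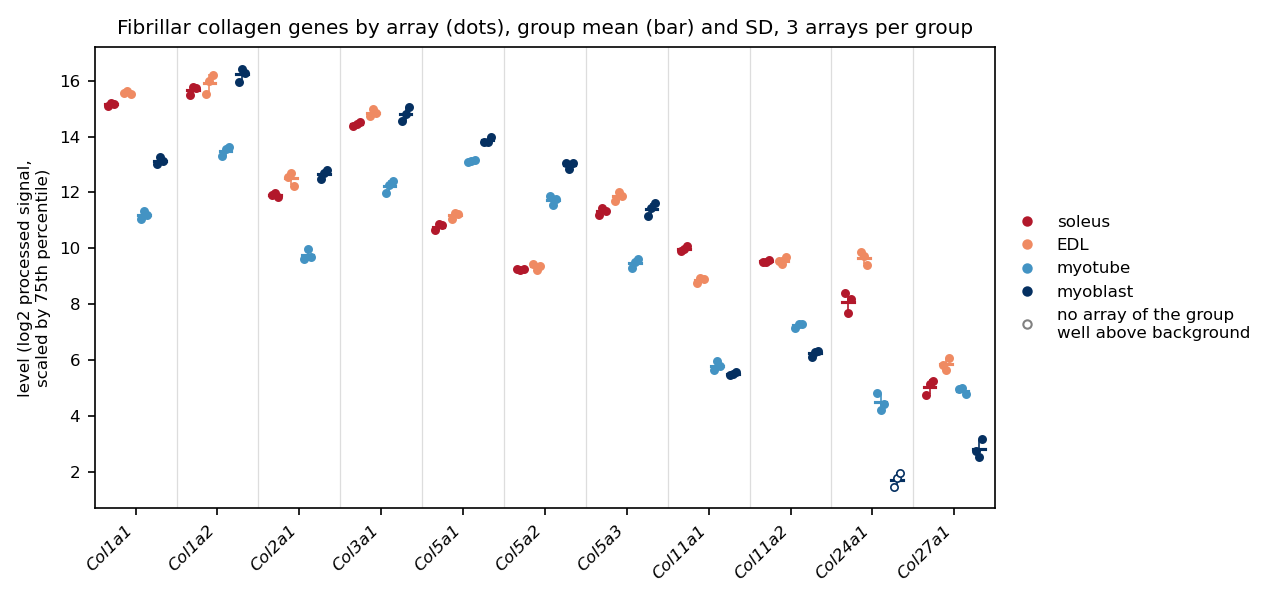
Level (vertical axis, log2 scaled signal) of the 11 fibrillar collagen genes on each array (dots), with group mean (bar) and SD (line) of 3 arrays for soleus, EDL, myotubes and myoblasts. Col1a1, Col1a2, Col2a1, Col3a1 and Col5a3 are lowest in myotubes, Col5a1 and Col5a2 are higher in both cultures than in both muscles, and open dots mark a group with no array well above background.

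Type IV collagen showed 2 behaviours. Col4a1 and Col4a2 form the type IV molecule found in nearly all basement membranes. Col4a1 (probe at chr8:11198981-11199040, mm8) measured 11.66, 11.74 and 11.67 in soleus, 11.57, 11.62 and 11.49 in EDL, 8.44, 8.68 and 8.56 in myotubes, and 12.10, 12.21 and 12.34 in myoblasts. The myotube arrays lay far under every other array, and the muscles lay between the cultures. It was 12.6-fold lower in myotubes than in myoblasts (-3.66 ± 0.09, adjusted p = 2.36e-10), 8.76-fold higher in soleus than in myotubes (3.13 ± 0.09, adjusted p = 5.17e-10) and 8.00-fold higher in EDL than in myotubes (3.00 ± 0.09, adjusted p = 6.08e-10).

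Col4a2 (probe at chr8:11448812-11448871, mm8) measured 11.47, 11.61 and 11.57 in soleus, 11.40, 11.39 and 11.44 in EDL, 9.10, 9.17 and 9.25 in myotubes, and 12.09, 12.13 and 12.26 in myoblasts. Its groups stood in the same order. The differences were -2.98 ± 0.08 for myotube minus myoblast, 2.37 ± 0.08 for soleus minus myotube and 2.24 ± 0.08 for EDL minus myotube, and 0.14 ± 0.08 for soleus minus EDL, which was not called. The sign of these called differences of both genes held under every alternative run.

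Col4a1 and Col4a2 lie head to head on chromosome 8 and are read in opposite directions. In RefSeq, build GRCm38.p6, their start sites are 21 bases apart. The stretch that holds both, chr8:11312801-11312830 on the plus strand, is shown because the 2 genes moved together. Capitals run from the Col4a2 start to the Col4a1 start, and hold the GC box GGGCGG. By these starts the first exons overlap, so the capitals lie inside both genes and not before either start.
Col4a1 and Col4a2: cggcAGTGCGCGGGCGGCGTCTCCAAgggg
Col4a5 and Col4a6 are also neighbours head to head, on the X chromosome, with starts 1343 bases apart that diverge without overlap. Neither was called against myotubes in either muscle.

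Col4a3, Col4a4 and Col4a5 form the type IV molecule of the kidney filter and other special membranes. Col4a3 measured 5.38, 5.15 and 4.83 in soleus, 5.87, 5.74 and 5.55 in EDL, 1.53, 1.38 and 2.01 in myotubes, and 0.96, 1.56 and 1.51 in myoblasts. No culture array was well above background, so only a bound can be given: at least 4.76-fold higher in EDL than in myotubes (adjusted p = 4.26e-08) and at least 3.14-fold higher in soleus than in myotubes (adjusted p = 1.57e-07). With normexp neither was called (fitted adjusted p = 0.403 in EDL and 0.176 in soleus). Col4a4 measured 9.48, 10.24 and 9.60 in soleus, 9.79, 10.16 and 9.68 in EDL, 9.17, 9.83 and 9.26 in myotubes, and 10.36, 10.68 and 10.27 in myoblasts. Muscle and myotube arrays overlapped. Its fall of 1.02 in myotubes relative to myoblasts was lost with normexp (-0.76) and without myoblast replicate 2 (-0.89), myotube replicate 1 (-0.89) or myotube replicate 3 (-0.93). A second Col4a4 probe averaged 6.64 in soleus and 7.83 in EDL and was not well above background in either culture, so the probes disagree.

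Col4a5 measured 7.06, 7.71 and 7.23 in soleus, 5.25, 7.04 and 6.24 in EDL, 7.12, 7.27 and 7.07 in myotubes, and 6.28, 6.38 and 6.28 in myoblasts. The EDL arrays spread over nearly 2 units, and their highest lay just under the lowest soleus array. The difference of soleus minus EDL, 1.16 ± 0.36 (adjusted p = 0.0341), was 0.69 without EDL replicate 1, 0.97 without soleus replicate 2, 1.19 without EDL replicate 3 and 1.21 without soleus replicate 3, and in all 4 cases it was no longer called. Col4a6, its partner in basement membranes of smooth muscle, was not called in any comparison, but its 0.99 for EDL minus myotube was called without myotube replicate 2 (1.21), EDL replicate 1 (1.18) or EDL replicate 3 (1.06). Col4a5 in EDL minus myotube (-0.98) was called without EDL replicate 2 (-1.41).

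Type VI collagen needs 3 chains. Col6a3 (probe at chr1:92597492-92597551, mm8) measured 11.77, 11.79 and 11.73 in soleus, 12.39, 12.20 and 12.13 in EDL, 9.59, 9.47 and 9.61 in myotubes, and 14.25, 14.29 and 14.35 in myoblasts. Its 4 groups were apart from each other. It was 26.6-fold lower in myotubes than in myoblasts (-4.74 ± 0.08, adjusted p = 2.8e-11), and higher than in myotubes in EDL (2.68 ± 0.08, adjusted p = 8.36e-10) and soleus (2.21 ± 0.08, adjusted p = 3.74e-09). Col6a1 measured 10.20, 10.58 and 10.66 in soleus, 10.46, 10.74 and 10.77 in EDL, 8.18, 8.35 and 8.46 in myotubes, and 7.92, 8.21 and 8.42 in myoblasts. Col6a2 measured 8.74, 9.15 and 9.05 in soleus, 9.07, 9.23 and 9.12 in EDL, 5.79, 6.33 and 6.39 in myotubes, and 5.23, 5.72 and 6.21 in myoblasts.

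For these 2 chains the cultures overlapped and the muscles were above them. Against myotubes, Col6a1 was higher in EDL (2.33 ± 0.16) and soleus (2.16 ± 0.16), and Col6a2 was higher in EDL (2.97 ± 0.24) and soleus (2.81 ± 0.24). In myotubes minus myoblasts the values were 0.15 ± 0.16 for Col6a1 and 0.45 ± 0.24 for Col6a2, neither called, beside -4.74 ± 0.08 for Col6a3. Against myoblasts, Col6a1 and Col6a2 were higher in soleus (2.30 and 3.26) and EDL (2.48 and 3.42), whereas Col6a3 was lower (-2.53 in soleus and -2.05 in EDL). With spike-in scaling Col6a1 was not called in soleus against myotubes (0.98) or myoblasts (0.77), and with normexp Col6a2 was not called against myoblasts in either muscle (1.24 in both).

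Multiplexins and the other sheet-forming genes varied by gene. Col15a1, whose product ties fibre and capillary basement membranes to the matrix, measured 9.19, 9.03 and 9.12 in soleus, 9.24, 9.35 and 9.40 in EDL, 1.56, 1.09 and 1.96 in myotubes, and 3.35, 0.73 and 1.87 in myoblasts. No myotube array and 1 myoblast array was well above background, and all muscle arrays were. It was at least 58.2-fold higher in EDL than in myotubes (adjusted p = 2.3e-07) and at least 50.1-fold higher in soleus (adjusted p = 3.06e-07). In log2 units these bounds are 5.86 and 5.65. With normexp the fitted differences were still called but lay under them, at 3.44 in EDL (adjusted p = 0.00939) and 3.32 in soleus (adjusted p = 0.0123). Col18a1, the source of the fragment endostatin, was 4.69-fold lower in myotubes than in myoblasts and differed from myotubes by -0.57 in EDL and -0.19 in soleus, neither called.

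Col8a1 and Col8a2, short chains of vessel and eye membranes, were both lower in myotubes than in myoblasts (-2.20 ± 0.09 and -1.13 ± 0.08). Relative to myotubes, Col8a2 was higher in EDL (1.61 ± 0.08) and soleus (1.88 ± 0.08), and Col8a1 was not called. With spike-in scaling neither Col8a2 difference was called (0.66 in EDL and 0.71 in soleus), and with normexp those in EDL (1.05) and in myotubes minus myoblasts (-1.29) were not. Col8a1 averaged 12.01 ± 0.06 in soleus and 11.01 ± 0.05 in EDL (SD, n = 3 each), a difference just under the minimum of 1 that passed it without EDL replicate 2 (1.01), EDL replicate 3 (1.01) or soleus replicate 2 (1.03). Col7a1, the anchoring fibril of skin, was lower in soleus than in myotubes (-1.28 ± 0.13, adjusted p = 6.73e-06), and its -0.56 in EDL minus myotube was not called.

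**Figure D3:**
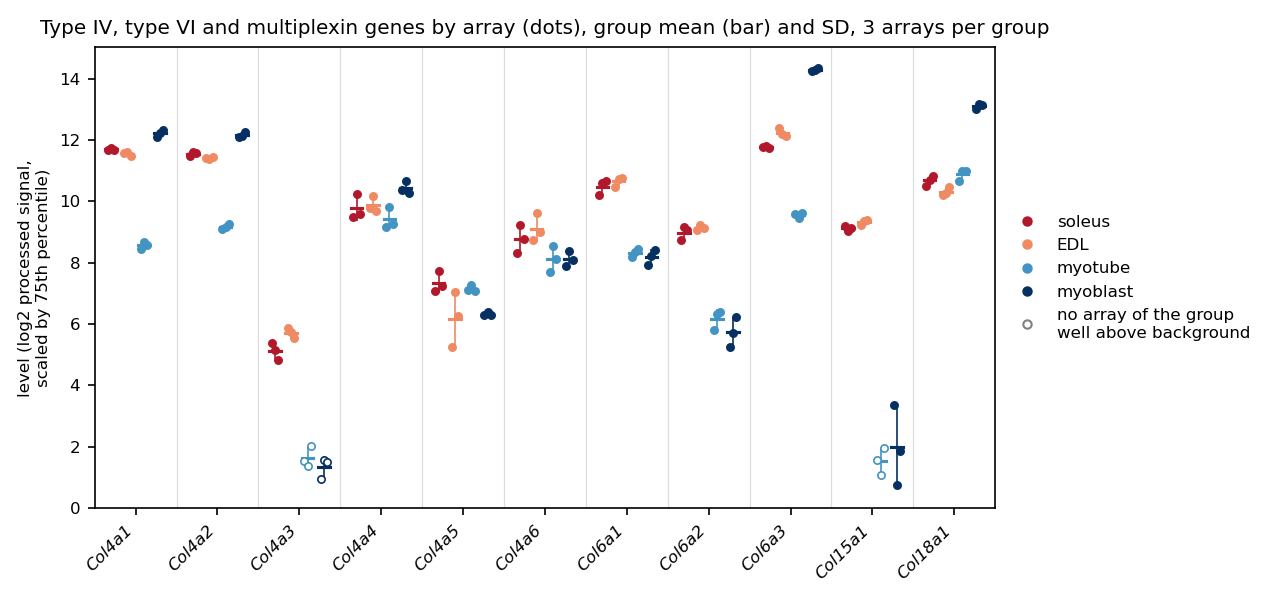
Level (vertical axis, log2 scaled signal) of the type IV, type VI and multiplexin genes on each array (dots), with group mean (bar) and SD (line) of 3 arrays for soleus, EDL, myotubes and myoblasts. Col4a1, Col4a2 and Col6a3 are lowest in myotubes and highest in myoblasts, Col15a1 is near 9 in both muscles and under 4 in both cultures, and open dots mark a group with no array well above background.

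Among 8 tested FACIT genes, 5 were higher and 1 lower in each muscle than in myotubes, beside 27.9% and 19.9% of all genes in EDL and 25.8% and 19.5% in soleus. Col22a1, which marks the junction of muscle and tendon, measured 13.19, 12.90 and 13.04 in soleus, 12.87, 12.60 and 12.77 in EDL, 8.44, 8.34 and 8.45 in myotubes, and 3.97, 5.25 and 5.58 in myoblasts. Each culture stage was clear of the next, and the muscles were the highest. It was 11.1-fold higher in myotubes than in myoblasts (3.48 ± 0.33, adjusted p = 5.35e-06), 24.8-fold higher in soleus than in myotubes (4.63 ± 0.33, adjusted p = 4.16e-07) and 20.2-fold higher in EDL than in myotubes (4.34 ± 0.33, adjusted p = 6.69e-07). With normexp the value of myotubes minus myoblasts was 0.68 and not called (adjusted p = 0.403). A second Col22a1 probe, well above background on all 12 arrays, averaged 11.51 in soleus, 10.08 in EDL, 8.16 in myotubes and 4.40 in myoblasts. It gave smaller differences of both muscles against both cultures, most of all in EDL, and a larger difference between the muscles.

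Col14a1, a FACIT that binds type I fibrils, measured 9.68, 9.70 and 9.80 in soleus, 9.64, 9.52 and 9.58 in EDL, 3.88, 4.05 and 3.88 in myotubes, and 4.06, 4.28 and 3.92 in myoblasts. Both muscles were over 5 units above both cultures, and the cultures overlapped. In myotubes 2 of 3 arrays were well above background. Col14a1 was 55.4-fold higher in soleus than in myotubes (5.79 ± 0.10, adjusted p = 2.39e-11) and 50.1-fold higher in EDL (5.65 ± 0.10, adjusted p = 2.49e-11). With normexp these differences were smaller but still called, at 3.37 in soleus and 3.23 in EDL. Col20a1 measured 9.13, 9.38 and 9.40 in soleus, 8.89, 8.91 and 8.96 in EDL, 4.35, 4.66 and 4.68 in myotubes, and 2.60, 2.86 and 3.54 in myoblasts, where 1 of 3 arrays was well above background. It was 26.8-fold higher in soleus than in myotubes and 20.4-fold higher in EDL than in myotubes, and its 1.56 ± 0.21 in myotubes minus myoblasts turned to -0.95 with normexp and was not called with spike-in scaling (1.20).

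Col16a1, found beside fibrils and at cell surfaces, averaged 11.36 ± 0.09 in soleus, 10.90 ± 0.04 in EDL, 7.78 ± 0.02 in myotubes and 11.44 ± 0.18 in myoblasts (SD, n = 3 each). It was 12.6-fold lower in myotubes than in myoblasts and 11.9-fold higher in soleus than in myotubes. Col12a1, a FACIT of tissues under tension, ran lower in EDL than in myotubes (-1.77 ± 0.18) and was not called in soleus (-0.91 ± 0.18). Col9a2, a cartilage chain, was higher in soleus than in myotubes (1.07 ± 0.13), but the value was 0.95 without soleus replicate 2 and -0.10 with spike-in scaling, and with normexp (1.14) it was not called.

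Col9a1 and Col19a1 separated the muscles. Col9a1, also known from cartilage, measured 3.22, 3.43 and 2.75 in soleus, 6.96, 6.84 and 6.93 in EDL, 2.80, 1.83 and 2.98 in myotubes, and 2.59, 2.75 and 2.73 in myoblasts. Only the EDL arrays were well above background. The gene was at least 6.92-fold lower in soleus than in EDL (adjusted p = 4.01e-06) and at least 10.9-fold higher in EDL than in myotubes (adjusted p = 1.46e-07). Its 1 probe passed the filter on dim probes through EDL alone, which largely set the direction of these calls. Their p-values rest on levels not well above background in the other group. Col19a1, which mouse muscle makes during development, measured 4.57, 4.18 and 4.61 in soleus, 6.93, 7.41 and 7.18 in EDL, 6.92, 7.16 and 7.29 in myotubes, and 6.59, 6.79 and 7.07 in myoblasts. Every soleus array was under every other array, and 1 soleus array was well above background. The difference was -2.72 ± 0.18 for soleus minus EDL (adjusted p = 1.98e-06) and -2.67 ± 0.18 for soleus minus myotube (adjusted p = 2.63e-07). With normexp, soleus minus EDL was -0.10 for each of these 2 genes, Col19a1 in soleus minus myotube was 0.087, and Col9a1 in EDL minus myotube was not called (adjusted p = 0.249). Of 3 Col19a1 probes, 1 had the other sign in soleus minus myotube (0.54).

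All 4 transmembrane genes were called in myotubes against myoblasts, 3 higher and 1 lower, beside 18.9% and 16.5% of all genes. None of the 4 calls held with normexp, which gave -0.18 for Col13a1, -0.23 for Col25a1, 0.53 for Col23a1 and -1.32 for Col17a1. Col23a1, a surface collagen that can be shed, measured 8.66, 8.42 and 8.81 in soleus, 8.28, 8.24 and 8.28 in EDL, 7.95, 7.40 and 7.85 in myotubes, and 2.71, 3.48 and 3.92 in myoblasts. Myotube arrays were close to muscle and over 3 units above myoblasts, where 2 of 3 arrays were well above background. It was 20.6-fold higher in myotubes than in myoblasts (4.36 ± 0.27, adjusted p = 1.91e-07), and neither muscle was called against myotubes (0.54 in EDL and 0.90 in soleus). The soleus value reached 1.00 without myotube replicate 1 or soleus replicate 2. Col13a1, a collagen of the nerve-muscle synapse, measured 8.37, 8.23 and 8.40 in soleus, 7.74, 7.73 and 7.75 in EDL, 6.76, 6.59 and 6.88 in myotubes, and 2.37, 3.98 and 4.50 in myoblasts. The 4 groups did not overlap. It was 8.73-fold higher in myotubes than in myoblasts (3.13 ± 0.42, adjusted p = 8.01e-05) and 3.02-fold higher in soleus than in myotubes (1.59 ± 0.42, adjusted p = 0.0061). The soleus call was lost with spike-in scaling (0.42) and with normexp (1.49), and a second Col13a1 probe gave -0.10.

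For EDL minus myotube, Col13a1 was 1.00 ± 0.42 and not called (adjusted p = 0.0528); with the replicate block it was called, which made the count of higher genes 23. Col25a1, a surface collagen that mouse muscle needs for its nerve supply, averaged 5.95 ± 0.41 in soleus, 5.31 ± 0.31 in EDL, 6.75 ± 0.08 in myotubes and 4.84 ± 0.39 in myoblasts (SD, n = 3 each). It was higher in myotubes than in myoblasts (1.90 ± 0.25) and lower in EDL than in myotubes (-1.44 ± 0.25). Col17a1, a collagen of epithelial anchors, went the other way, lower in myotubes than in myoblasts (-1.25 ± 0.12) and higher in EDL than in myotubes (1.39 ± 0.12). Neither EDL call held with normexp (-0.34 for Col25a1 and 0.93 for Col17a1), nor that of Col17a1 with spike-in scaling (0.44).

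The 250 bases before the starts of Col13a1 (chr10:61979109-61979358, minus strand) and Col23a1 (chr11:51289670-51289919, plus strand), again from RefSeq in GRCm38.p6, are shown as those of the 2 transmembrane genes with the largest rise in myotubes, with the same motifs in capitals.
Col13a1: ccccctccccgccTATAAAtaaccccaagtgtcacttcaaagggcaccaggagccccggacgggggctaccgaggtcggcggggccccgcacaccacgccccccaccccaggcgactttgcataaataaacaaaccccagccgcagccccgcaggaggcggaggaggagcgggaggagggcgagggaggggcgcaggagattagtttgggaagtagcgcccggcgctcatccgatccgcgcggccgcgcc
Col23a1: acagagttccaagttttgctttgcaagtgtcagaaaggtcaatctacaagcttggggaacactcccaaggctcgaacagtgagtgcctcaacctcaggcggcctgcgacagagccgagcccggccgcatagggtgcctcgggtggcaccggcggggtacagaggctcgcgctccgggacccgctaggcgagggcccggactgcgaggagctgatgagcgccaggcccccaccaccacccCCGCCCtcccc
TATAAA lay 237 bases before the start of Col13a1, and GGGCGG, on the other strand, 11 bases before that of Col23a1. Neither stretch held the E-box letters CAGCTG.

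**Figure D4:**
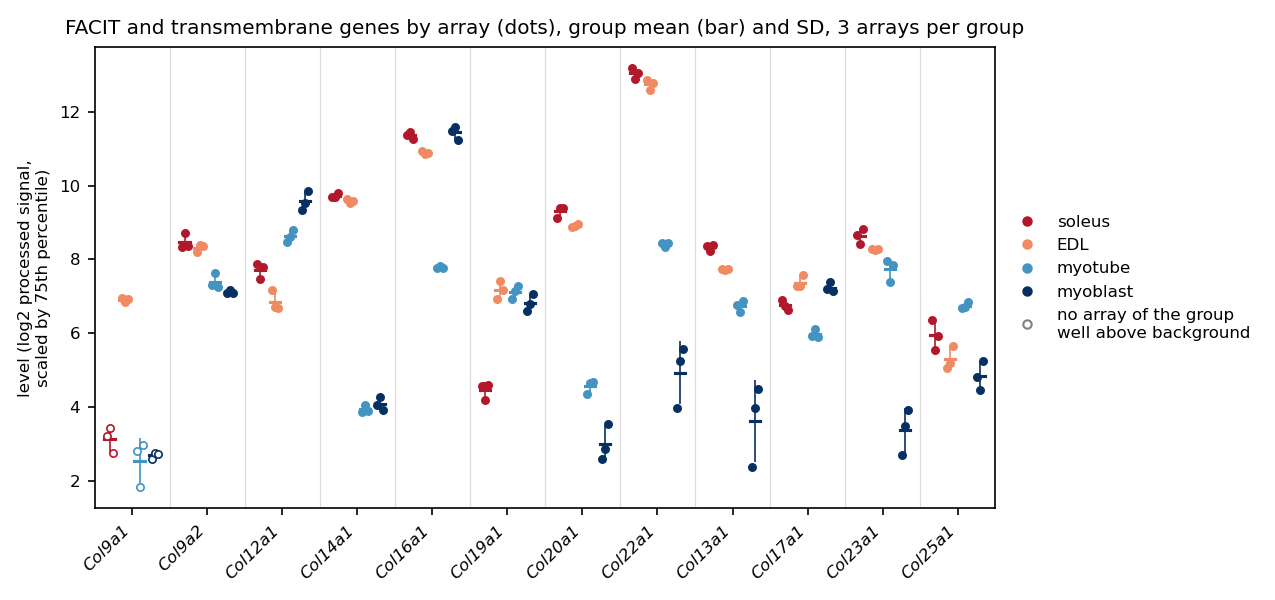
Level (vertical axis, log2 scaled signal) of the 8 tested FACIT genes and 4 transmembrane genes on each array (dots), with group mean (bar) and SD (line) of 3 arrays for soleus, EDL, myotubes and myoblasts. Col14a1, Col20a1 and Col22a1 are far higher in both muscles than in both cultures, Col13a1 and Col23a1 are lowest in myoblasts, and open dots mark a group with no array well above background.

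Against myoblasts, the muscles were more mixed. In EDL 16 of 37 genes were higher and 6 lower, against 33.0% of all genes higher and 24.8% lower, and in soleus 17 were higher and 7 lower, against 30.8% and 24.7%. The medians were 0.47 for EDL and 0.65 for soleus, beside 0.26 and 0.18 for all genes. With spike-in scaling the counts were 15 and 15 in EDL, and 11 and 18 in soleus, and with normexp 3 of the 16 rises in EDL and 5 of the 17 in soleus held. Normexp moved the median of all genes by -0.56 in EDL and -0.03 in soleus minus myoblast. Col22a1 was 276-fold higher in soleus than in myoblasts (8.11 ± 0.33, adjusted p = 3.29e-09) and 225-fold higher in EDL (7.81 ± 0.33, adjusted p = 4.2e-09). The second Col22a1 probe gave smaller differences of the same sign. Relative to myoblasts, Col5a2 was 13.4-fold lower in soleus and 12.4-fold lower in EDL.

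Markers of most other cell types were higher in the muscles, but the sums for tendon and cartilage were not. All 8 fibroblast genes were well above background on every array of both muscles, 5 in myotubes and 4 in myoblasts, with Thy1 and Dpt on no culture array. Their summed scaled signal was 66294 to 71126 in soleus, 86586 to 111309 in EDL, 15487 to 19867 in myotubes and 8258 to 9250 in myoblasts. All 6 endothelial genes were seen in both muscles, and Pecam1, Cdh5 and Emcn on no array of either culture, with sums of 37339 to 40949 in soleus, 34784 to 35500 in EDL, 69.5 to 89.6 in myotubes and 781 to 958 in myoblasts. Smooth muscle and pericyte (5 genes), macrophage (4) and Schwann cell (4) sums also lay higher on every muscle array than on any culture array. The sum of the 6 tendon genes was highest in myotubes, at 26630 to 29905 in soleus, 25371 to 27195 in EDL, 44698 to 62327 in myotubes and 23237 to 34443 in myoblasts, although 5 of the 6 were called higher and 1 lower in each muscle than in myotubes, and Tnmd was well above background on every muscle array and on no culture array. The 5 cartilage genes, of which 2 were called lower and none higher in each muscle than in myotubes, had higher sums in culture, at 568 to 725 in soleus, 337 to 381 in EDL, 2123 to 2527 in myotubes and 2384 to 2623 in myoblasts. In bulk RNA, fewer cells of a type and less RNA per cell cannot be told apart, and the part of these cells in the collagen differences was not tested. Between the muscles, 4 Schwann cell genes summed to 7483 to 7970 in soleus and 3365 to 3510 in EDL, and 1 of them was called. Also called higher in soleus were 1 of 6 tendon, 1 of 4 tested cartilage and 1 of 5 smooth muscle and pericyte genes. No fibroblast, endothelial or macrophage gene was called.

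Genes that make, cut, cross-link or bind collagen were called in both directions. Of 46 tested, 5 were higher and 20 lower in myotubes than in myoblasts, with a median of -0.51, beside the 18.9% and 16.5% of all genes. With spike-in scaling 2 were higher and 21 lower. The genes with the 4 largest rises were Tgm2 (3.40 ± 0.11), a cross-linking transglutaminase, Tgfb3 (2.26 ± 0.16), a growth factor, its signal carrier Smad3 (1.29 ± 0.14) and the receptor gene Tgfbr2 (1.13 ± 0.09), of which Smad3 (0.93) and Tgfbr2 (0.77) were not called with spike-in scaling. Among the lowered were Pcolce2 (-6.00 ± 0.12), an enhancer of propeptide removal, the cross-linking enzymes Loxl2 (-4.53 ± 0.18) and Loxl3 (-2.77 ± 0.12). P4ha3, a prolyl hydroxylase, was not well above background in myotubes, so its fall has only a bound (at least 1.29-fold lower) and no rank among them, and it was not called with normexp. P4ha1, which hydroxylates proline in new chains, was not called (0.41 ± 0.09).

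Against myotubes, 9 processing genes were higher and 12 lower in EDL (median -0.27), and 11 and 13 in soleus (median -0.47). The higher calls were 19.6% of 46 in EDL, below the 27.9% of all genes, and 23.9% in soleus, near the 25.8%; all genes called lower were 19.9% in EDL and 19.5% in soleus. Spike-in scaling gave 6 and 29 in EDL, and 5 and 31 in soleus. It also moved the median of all genes by -0.94 and -1.17, and no share of all genes is given for it. These counts are therefore not set against the shares above. Colgalt2, which adds galactose to collagen, was at least 27.4-fold higher in EDL and at least 27.6-fold higher in soleus than in myotubes, and Adamts3, a protease that trims propeptides, at least 6.60-fold and 6.54-fold. Loxl2 was higher in EDL (3.78 ± 0.18) and soleus (4.11 ± 0.18), Pcolce2 in EDL (2.68 ± 0.12) and P3h2, a prolyl 3-hydroxylase, in soleus (2.55 ± 0.20). Lower in EDL were Thbs1 (-6.50 ± 0.18), a matrix glycoprotein, Lox (-4.04 ± 0.17), the founding cross-linking enzyme, Tgfb1 (-2.53 ± 0.17), an inducer of collagen, and the chaperone gene Fkbp10 (-2.26 ± 0.24). In soleus they were Thbs1 (-5.67 ± 0.18), Lox (-4.48 ± 0.17), P3h1 (-2.31 ± 0.17) and Fkbp10 (-2.19 ± 0.24). P4ha1 in EDL (-0.86 ± 0.09) and P4ha2 in soleus (-0.47 ± 0.10) were not called.

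Between muscles, 3 of 46 processing genes were higher in soleus and 1 lower, near the 5.03% and 4.75% of all genes. With spike-in scaling P3h2 and Ccn2 were called, and with normexp Ccn2 alone. P3h2 averaged 8.27 ± 0.24 in soleus and 5.30 ± 0.42 in EDL (SD, n = 3 each), a difference of 2.97 ± 0.20 (adjusted p = 2.56e-06). Ccn2, a matrix growth factor, was higher by 1.69 ± 0.09, and Thbs2, a relative of Thbs1, by 1.09 ± 0.08. Adamts14 was lower in soleus (-1.11 ± 0.32, adjusted p = 0.0261), and P4ha1 (-0.97 ± 0.09) was not called.

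**Figure D5:**
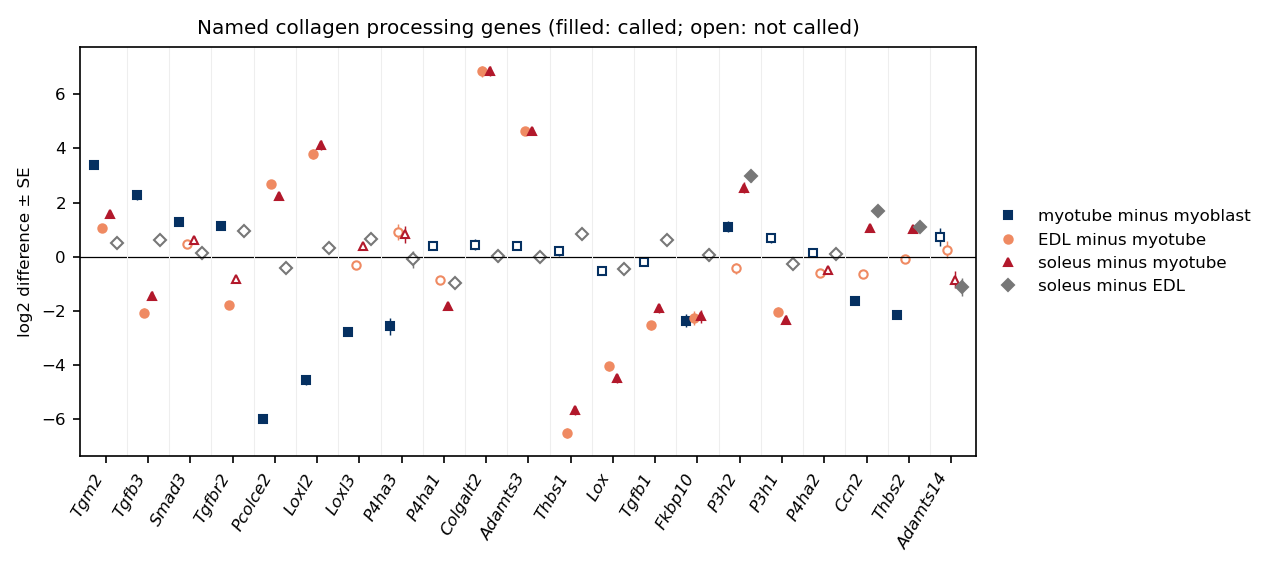
Log2 difference with its standard error (vertical axis) of the named processing genes (horizontal axis) in 4 comparisons, with filled symbols for called and open symbols for not called; values against groups not well above background are fitted. Pcolce2 and Loxl2 lie under 0 for myotube minus myoblast and above 0 for both muscles minus myotube, and Lox and Thbs1 lie far under 0 for both muscles minus myotube.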

How the data were processed

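RNA of 12 samples (3 each of soleus, EDL, myotubes and myoblasts) was labelled with Cy3 and hybridized to 12 one-colour arrays. The deposited scanner files give a processed signal per spot, an intensity with background removed and no scaling between arrays, written by version 10.5.1.1 of the Agilent Feature Extraction software, per the file headers. The values the authors deposited for the series, also an intensity per probe, have a normalization not given in the sources used here, and served as an alternative. Spots of a probe were averaged (41174 probes from 43379 spots, 68 to 140 outlier spots per array left out, none saturated). Log2 values were scaled by each array's 75th percentile, with 9.65 added back. The filter kept 28607 probes that were well above background throughout 1 group or more, and a gene was its kept probe with the highest mean. Probes were named through RefSeq gene names, by accession (24314), symbol (6281) or synonym (2426), and 8072 kept the file's name. Another 3 genes that get a collagen symbol only through that table were not members. Probe positions are those of the array design (mm8), and promoters are RefSeq's (GRCm38.p6).

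Differences were fitted with limma 3.58.1 in R 4.3.3 (package data.table in version 1.17.8) across the 12 arrays, as 4 means without a block, two-sided (residual degrees of freedom 8, prior 1.76), with Benjamini-Hochberg adjustment over 18861 genes. The number of arrays limits the precision. On data simulated for myotube minus myoblast, 181 of 200 genes changed by 2 log2 units were recovered, with 5 false calls. The simulated arrays were independent of the slide, so this recovery need not hold for these data or for smaller differences. Where no probe of a gene was well above background on any array of a group, the fold is a bound against the lowest signal well above background. Such a gene passed the filter through its brighter groups, so the direction of its calls against the dim group was largely set by the filter. The replicate number is the slide, per the file headers, and slide 1 was scanned on another day. Deviations of arrays on the same slide correlated with r of 0.23 to 0.66 for every pair of groups (-0.49 to 0.20 between slides), so the numbers pair the samples. Position and group cannot be told apart, since each group held 1 position on every slide. The labels do not say whether cultures were separate, so p-values may measure technical spread only.

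The members and gene lists were chosen with earlier results of these data known. The text names every collagen gene, gives all arrays for up to 3 per class with the largest called difference and chains that share a molecule with them, and names up to 4 processing genes per direction with the first listed one not called. All-array values of Col5a1, Col5a2, Col5a3, Col9a1 and Col19a1 go beyond that rule and were chosen after their values were seen. Alternatives were quantile, spike-in and normexp (offset 50) settings, the authors' values, no filter or one on all 12 arrays, the mean over probes, only the compared groups, blocks for the slide, arrays left out and no minimum difference.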

Additional observations from a re-analysis of the deposited data

Results flagged for a closer look

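The collagen genes that differed between the 2 muscles by the test of soleus minus EDL are listed for a closer look. In soleus, Col4a5 was higher by 1.16 and Col11a1 by 1.11, while the differences were -2.72 for Col19a1 and -1.58 for Col24a1, and for Col9a1, which was not well above background in soleus, only a bound of -2.79 (at least 6.92-fold lower) can be given. All 5 had the same sign on each of the 3 slides, as did every called collagen gene in the other comparisons. These are the arrays that gave the calls, so the agreement adds no separate support. Within groups of 3 arrays no sample was tested as an outlier.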

How the results depend on the processing

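Of the called differences, the sign and call held under every alternative that tested the gene for 12 of 23 (myotube minus myoblast), 21 of 26 (EDL minus myotube), 15 of 26 (soleus minus myotube), 0 of 5 (soleus minus EDL), 9 of 22 (EDL minus myoblast) and 9 of 24 (soleus minus myoblast). Genes that the filter on all 12 arrays left untested were not counted as lost there. The replicate block changed no call but that of Col13a1 in EDL minus myotube (23 genes higher in place of 22).

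Normexp gave 1 gene higher in myotubes than in myoblasts, none higher and none lower in soleus than in EDL (0 and 0), and 3 (EDL) and 5 (soleus) higher than in myoblasts. It moved the median gene by -0.56, 0.13, 0.41, 0.28, -0.56 and -0.03 in the 6 comparisons as ordered above. It reversed Col11a2 (-0.34), Col13a1 (-0.18), Col20a1 (-0.95), Col24a1 (-1.03), Col25a1 (-0.23) and Col27a1 (-0.94) in myotube minus myoblast, Col19a1 (0.087) in soleus minus myotube, and Col4a3 (-0.069) and Col27a1 (-0.23) in EDL minus myoblast. Spike-in scaling gave 8 lower in EDL than in myotubes, 14 higher and 7 lower in soleus than in myotubes, 0 higher in soleus than in EDL, 15 lower in EDL than in myoblasts, and 11 higher and 18 lower in soleus than in myoblasts; the median gene moved by -0.36, -0.94, -1.17, -0.23, -1.30 and -1.53 in the 6 comparisons as ordered above. It reversed Col9a2 in soleus minus myotube (-0.10), EDL minus myoblast (-0.10) and soleus minus myoblast (-0.17), Col3a1 (-1.24) and Col17a1 (-1.17) in EDL minus myoblast, and Col4a5 (-0.51), Col9a1 (-1.09) and Col25a1 (-0.42) in soleus minus myoblast. The mean over probes reversed Col4a4 in EDL (3.09) and soleus (2.44) minus myoblast.

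A filter on all 12 arrays left 27 genes to test and gave 3 higher in myotube minus myoblast, 0 lower in soleus minus EDL, and 7 (EDL) and 9 (soleus) higher than in myoblasts. With no minimum difference, 8 were lower in EDL minus myotube, 7 higher and 11 lower in soleus minus EDL, and 15 lower in soleus minus myoblast. No filter, or only the compared groups, left 1 gene higher in soleus than in EDL, and leaving out arrays gave 1 to 3. The causes of other shifts were not tested. Genes dim in a culture have only bounds there.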
